A study of Homo sapiens with 10 samples.

Results

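The transcripts described here are those of the replication licensing machinery: the helicase subunits MCM2, MCM3, MCM4, MCM5, MCM6 and MCM7, the helicase activator MCM10, the loading factors CDC6 and CDT1, and the CDT1 inhibitor geminin (GMNN). These 10 genes were taken by symbol from the 55841 gene identifiers of the count table, and all 10 were counted in every library. The RNA came from HES9, a line of human embryonic stem cells grown in mTESR1 medium on matrigel. The general population was unsorted, and the HHH fraction was sorted for the highest expression of EPCAM, GCTM-2 and CD9, surface antigens of pluripotent cells. Batch 1 held 2 general and 2 HHH libraries and batch 2 held 3 of each, so that each population had 5 libraries. The study regards HHH as the self-renewing subset and also examined its cell cycle by flow cytometry. By that assay it reported a low G1 fraction in HHH beside unsorted cells, the larger part of HHH being in S phase or G2/M. The comparison made here asks whether the licensing transcripts differed between the sorted fraction and the culture it came from.

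A single cell line was sampled, and the labels do not say whether replicates came from separate cultures, so the p-values measure the spread between these libraries, which may be technical. The labels name no genotype and no treatment. The design text of the deposit mentions a protein kinase C inhibitor, and whether any of these libraries was treated is not resolved here. The study's text gives WA09 as the line of its cultures, and whether HES9 stands for the same cells is also not resolved.

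Licensing is the step that allows each origin to fire once in a cell cycle. In late mitosis and G1 the origin recognition complex, CDC6 and CDT1 load the ring of MCM2 to MCM7 onto DNA, where it stays inactive until S phase kinases, CDC45 and the GINS complex turn it into the running helicase, a step that also needs MCM10. Geminin binds CDT1 and blocks it through S, G2 and M phase, and is degraded at the end of mitosis. Cells of pluripotent lines cycle fast with a short G1, and E2F factors drive many of these genes towards S phase.

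In GENCODE 44 on GRCh38 they are MCM2 (ENSG00000073111, chr3:127598410-127622436), MCM3 (ENSG00000112118, chr6:52264014-52284881), MCM4 (ENSG00000104738), MCM5 (ENSG00000100297, chr22:35400134-35425431), MCM6 (ENSG00000076003, chr2:135839626-135876443), MCM7 (ENSG00000166508, chr7:100092233-100101940), MCM10 (ENSG00000065328, chr10:13161558-13211110), CDT1 (ENSG00000167513, chr16:88803789-88809258), CDC6 (ENSG00000094804, chr17:40287879-40304657) and GMNN (ENSG00000112312, chr6:24774931-24786099). All are protein coding. MCM7 was the sole member whose exons overlapped other counted genes: 8.49% of its exonic bases were shared, 392 with AP4M1 on the opposite strand and 29 with the microRNA hairpin MIR93. MCM7 also hosts the hairpins MIR25 and MIR106B, and the 3 hairpins had 6 to 53 counts per library against at least 15118 for MCM7.

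E2F-type motifs were looked for in the promoter windows that RefSeq gives for GRCh38.p14, from 250 bases before each start to 30 bases from it. The motif was any of TTTCCCGC, TTTCGCGC, TTTGCCGC or TTTGGCGC on either strand. Of the 10 genes, 8 had at least 1 window and 7 of these 8 held a match, MCM10 being the exception, whereas 3.82% of the 27305 genes with a window held one. By window the figures were 7 of 11 for the licensing genes and 3.14% of all 35116. The windows of 5 genes are shown because the results below turn on GMNN, CDT1 and CDC6, and because MCM2 and MCM6 hold the matches in overlapping pairs. Each is written from 5′ to 3′ along the gene, with the motif letters in capitals.
MCM2 chr3:127598161-127598440 (+ strand): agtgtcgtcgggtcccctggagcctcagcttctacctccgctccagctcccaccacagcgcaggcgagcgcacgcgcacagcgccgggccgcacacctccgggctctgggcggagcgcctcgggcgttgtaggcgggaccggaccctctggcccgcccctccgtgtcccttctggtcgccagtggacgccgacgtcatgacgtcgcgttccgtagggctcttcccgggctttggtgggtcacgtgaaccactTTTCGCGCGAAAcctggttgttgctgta
MCM6 chr2:135876414-135876693 (- strand): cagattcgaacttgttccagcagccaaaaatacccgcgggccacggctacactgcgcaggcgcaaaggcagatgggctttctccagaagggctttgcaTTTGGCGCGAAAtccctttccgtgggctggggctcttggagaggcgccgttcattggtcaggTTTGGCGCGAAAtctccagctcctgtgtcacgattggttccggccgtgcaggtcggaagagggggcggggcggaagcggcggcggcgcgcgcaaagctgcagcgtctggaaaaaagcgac
CDC6 chr17:40287629-40287908 (+ strand): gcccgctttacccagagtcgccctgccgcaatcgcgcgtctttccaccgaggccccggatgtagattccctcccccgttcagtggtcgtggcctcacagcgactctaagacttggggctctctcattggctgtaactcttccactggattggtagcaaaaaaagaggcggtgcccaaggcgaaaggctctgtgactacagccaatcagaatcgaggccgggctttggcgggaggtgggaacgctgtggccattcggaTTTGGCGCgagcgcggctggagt
CDT1 chr16:88803539-88803818 (+ strand): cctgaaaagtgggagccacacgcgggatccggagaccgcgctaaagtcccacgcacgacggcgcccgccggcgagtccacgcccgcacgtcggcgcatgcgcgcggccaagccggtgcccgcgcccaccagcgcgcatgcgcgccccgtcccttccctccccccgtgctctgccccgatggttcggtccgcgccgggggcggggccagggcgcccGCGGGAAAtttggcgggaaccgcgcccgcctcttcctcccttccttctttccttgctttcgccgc
GMNN chr6:24775163-24775442 (+ strand): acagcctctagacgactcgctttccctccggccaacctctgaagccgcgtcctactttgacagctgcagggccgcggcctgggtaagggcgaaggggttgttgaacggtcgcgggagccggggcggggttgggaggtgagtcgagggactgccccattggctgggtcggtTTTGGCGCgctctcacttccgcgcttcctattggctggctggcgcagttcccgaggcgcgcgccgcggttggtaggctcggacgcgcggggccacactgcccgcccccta

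In MCM2 the matches ran from base 3 to base 10 and from base 7 to base 14 counted from the start, 1 on each strand. MCM6 held 4 matches in 2 such overlapping pairs, at -152 to -141 and at -90 to -79. CDC6 held a match from base 8 to base 15, CDT1 held one at -35 to -28 on the reverse strand, and GMNN held one at -80 to -73. The GMNN window shown is that of the downstream of 2 listed starts, and the upstream one had no match. MCM3 held 2 matches, at -174 and across its start, and the most upstream of the 3 MCM7 windows held 2. These are matches of letters, and binding was not measured.

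The members were deeply counted. Library totals ran from 47242595 to 78503395 counts, and the 10 genes together took 0.175 to 0.237% of them. The lowest count of any member in any library was 2223, for MCM10. Batch separated the libraries more than the sort did, with 58.3% of the variance on the first principal component, 94.1% of which lay between the batches, and 11.7% on the second, 91.2% of which lay between the populations. Small RNAs and mitochondrial genes took 2.21 to 7.75% of the counts and took more in every batch 1 library than in any batch 2 library. Levels are given in CPM, the counts divided by the TMM-scaled size of each library and brought to the same total. The 7 pluripotency markers, among them POU5F1 and NANOG, summed to 3845 to 4200 CPM in the general libraries and 3443 to 3567 CPM in HHH in batch 1. In batch 2 they summed to 3877 to 4283 CPM and 4186 to 4465 CPM. The HHH sum thus lay lower in batch 1 and overlapped in batch 2. By gene, 0 of the 7 passed within batch 1, with a median log2 change of -0.11. Within batch 2, 3 were higher in HHH and 0 lower, with a median of 0.30, where 3.83% of all genes were higher. The 2 sorting antigens with a gene of their own, EPCAM and CD9, had a median log2 change of 0.12 in batch 1, where 0 of the 2 passed, and of 0.50 in batch 2, where both passed. The 8 neural ectoderm markers summed to 19.3 to 41.7 CPM in general and 9.75 to 19.0 CPM in HHH, with SOX1, HES5, NEUROG2 and POU3F2 under 1 CPM in every library. The 9 mesoderm and endoderm markers summed to at most 2.59 CPM. The 7 fibroblast markers summed to 119 to 143 CPM in general and 83.7 to 122 CPM in HHH, with COL3A1, DCN and LUM under 1 CPM in every library. No marker was at 0 in every library. Whether cells of these other types were present, or had a part in any value below, was not tested. In bulk RNA fewer cells of a type and less RNA per cell cannot be told apart.

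Per kilobase of exon, MCM3 was the most abundant licensing transcript and MCM10 the least. MCM3 had a level of 103 to 129 CPM per kilobase over the 10 libraries, and MCM7, the next, 59.9 to 73.4, so that every library of MCM3 lay above every library of MCM7. Below them MCM6 (42.9 to 49.5 CPM per kilobase), MCM4 (38.3 to 47.0), MCM2 (34.2 to 45.1) and MCM5 (30.5 to 50.3) overlapped, and their order changed from library to library. By this length a lower tier held GMNN at 17.0 to 30.3 CPM per kilobase, CDC6 at 19.8 to 28.8 and CDT1 at 14.7 to 23.2, again overlapping. The place of GMNN depended on the length. With its longest annotated transcript in place of all exons it had 33.3 to 59.3 CPM per kilobase and overlapped MCM2, MCM5 and MCM6. MCM10, which binds the assembled helicase, had 8.30 to 11.7 CPM per kilobase and lay below all the others in every library.

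**Figure D1:**
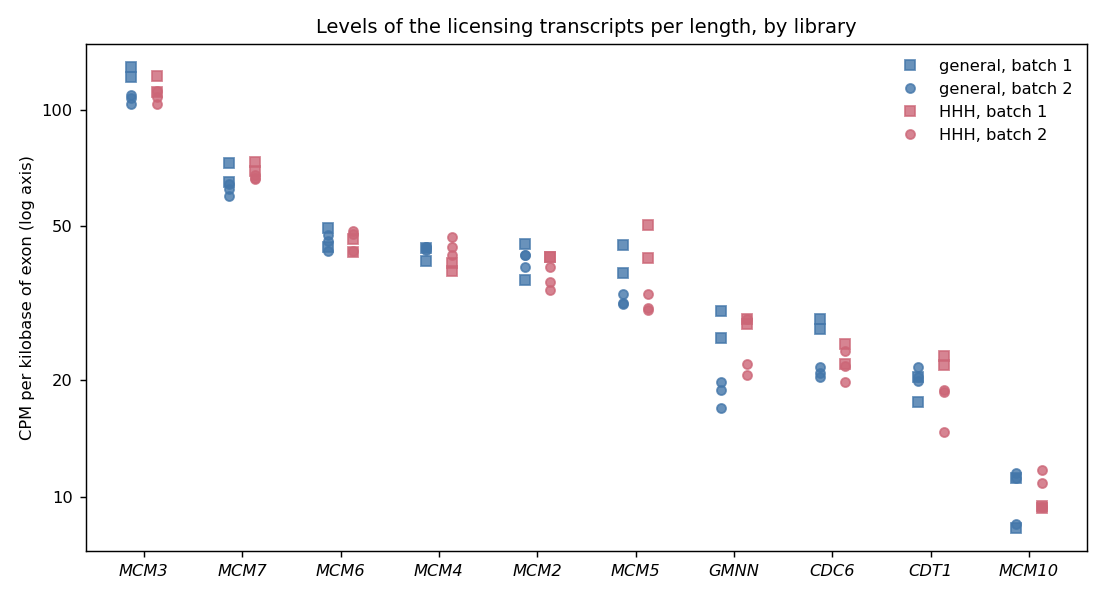
Level of each licensing transcript in CPM per kilobase of exon (log axis) in the 10 libraries, with general in blue, HHH in red, batch 1 as squares and batch 2 as circles. MCM3 (103 to 129) and MCM7 (59.9 to 73.4) stand above the other helicase subunits, and MCM10 (8.30 to 11.7) lies lowest.

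The helicase ring holds its 6 subunits in equal number, but their transcripts were not equal. As a share of the length-scaled sum of MCM2 to MCM7, MCM3 took 30.8 to 35.2% and MCM7 took 17.9 to 20.7%. MCM6 took 12.0 to 14.6%, MCM4 10.6 to 13.5%, MCM2 10.5 to 12.8% and MCM5 9.32 to 13.9%. These shares, and the order of the lower subunits, depend on the length given to a gene. With the longest annotated transcript in place of all exons, MCM3 took 25.2 to 29.1% and MCM7 20.9 to 24.1%. MCM4 then took 13.8 to 17.7% and MCM6 9.56 to 11.6%. With either length MCM3 and then MCM7 led in all 10 libraries. The spread between libraries of the same population and batch was smallest for MCM4 and largest for MCM10, with a pooled SD of 0.060 and 0.21 on the log2 scale. Over all libraries the highest CPM exceeded the lowest by 1.15 times for MCM6 and by 1.78 times for GMNN.

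No licensing transcript passed the test between HHH and the general population over both batches. With edgeR's quasi-likelihood test, batch as a term and Benjamini-Hochberg adjustment over 23552 genes, 0 of the 10 members passed an adjusted p of 0.05, against 5.83% of all genes, and 0 passed it with a change over 1.5-fold, against 2.98%. DESeq2 also called 0 members, beside 8.4% of all genes. At an unadjusted p under 0.05 there was 1 member, GMNN, and 4923 of all genes. None of the 10 had HHH libraries that lay apart from the general libraries over both batches, where 3.02% of all genes did. The log2 fold changes ran from -0.092 for MCM2 to 0.22 for GMNN, with a median of -0.020 beside 0.016 over all genes.

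The intervals bound how large a difference could be. For the 6 helicase subunits the estimated change of HHH against general was 0.938-fold for MCM2 (95% interval 0.833 to 1.06), 0.979-fold for MCM3 (0.884 to 1.08), 0.978-fold for MCM4 (0.884 to 1.08), 1.03-fold for MCM5 (0.912 to 1.16), 0.994-fold for MCM6 (0.895 to 1.10) and 1.06-fold for MCM7 (0.960 to 1.17). MCM10 was at 1.00-fold (0.861 to 1.16), CDT1 at 0.965-fold (0.829 to 1.12) and CDC6 at 0.952-fold (0.844 to 1.07). GMNN had the largest estimate, 1.17-fold, with an interval of 1.00 to 1.36 (adjusted p = 0.229). Its log2 change of 0.22 was 0.12 without HHH batch 2 replicate 3, where CDC6 stood at -0.13. A change of 1.5-fold in either direction lay outside the interval of every member.

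**Figure D2:**
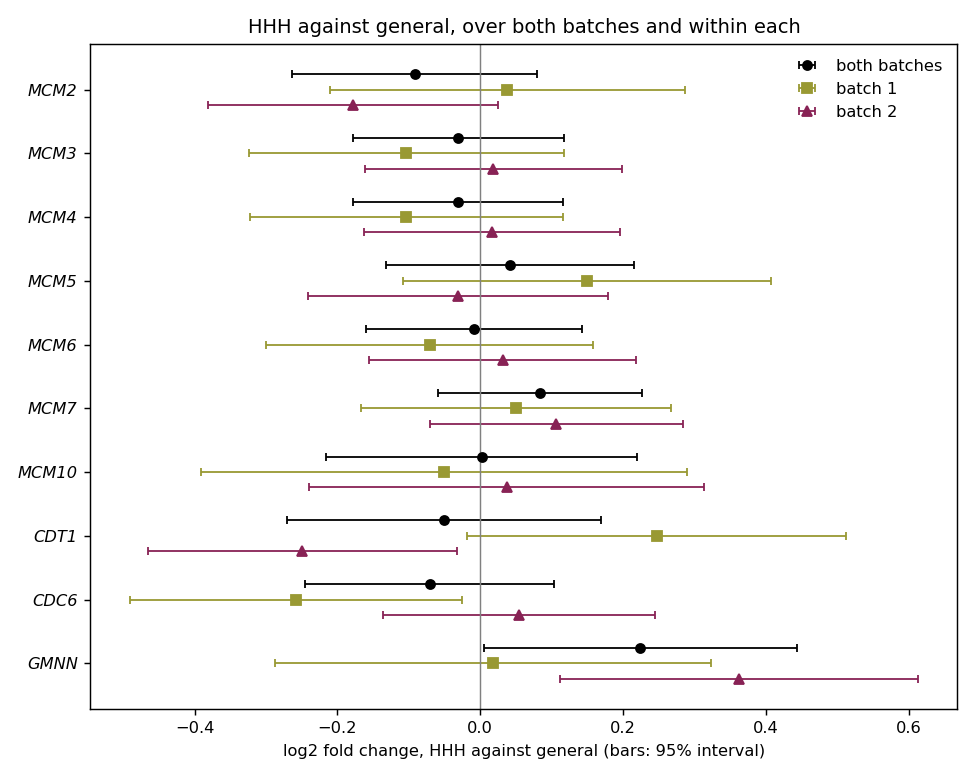
Log2 fold change of HHH against general for each licensing gene over both batches (black), within batch 1 (olive squares) and within batch 2 (purple triangles), with 95% intervals. Most intervals span 0, and those that do not are GMNN over both batches and in batch 2, CDC6 in batch 1 and CDT1 in batch 2, none with an adjusted p under 0.05.

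**Figure D3:**
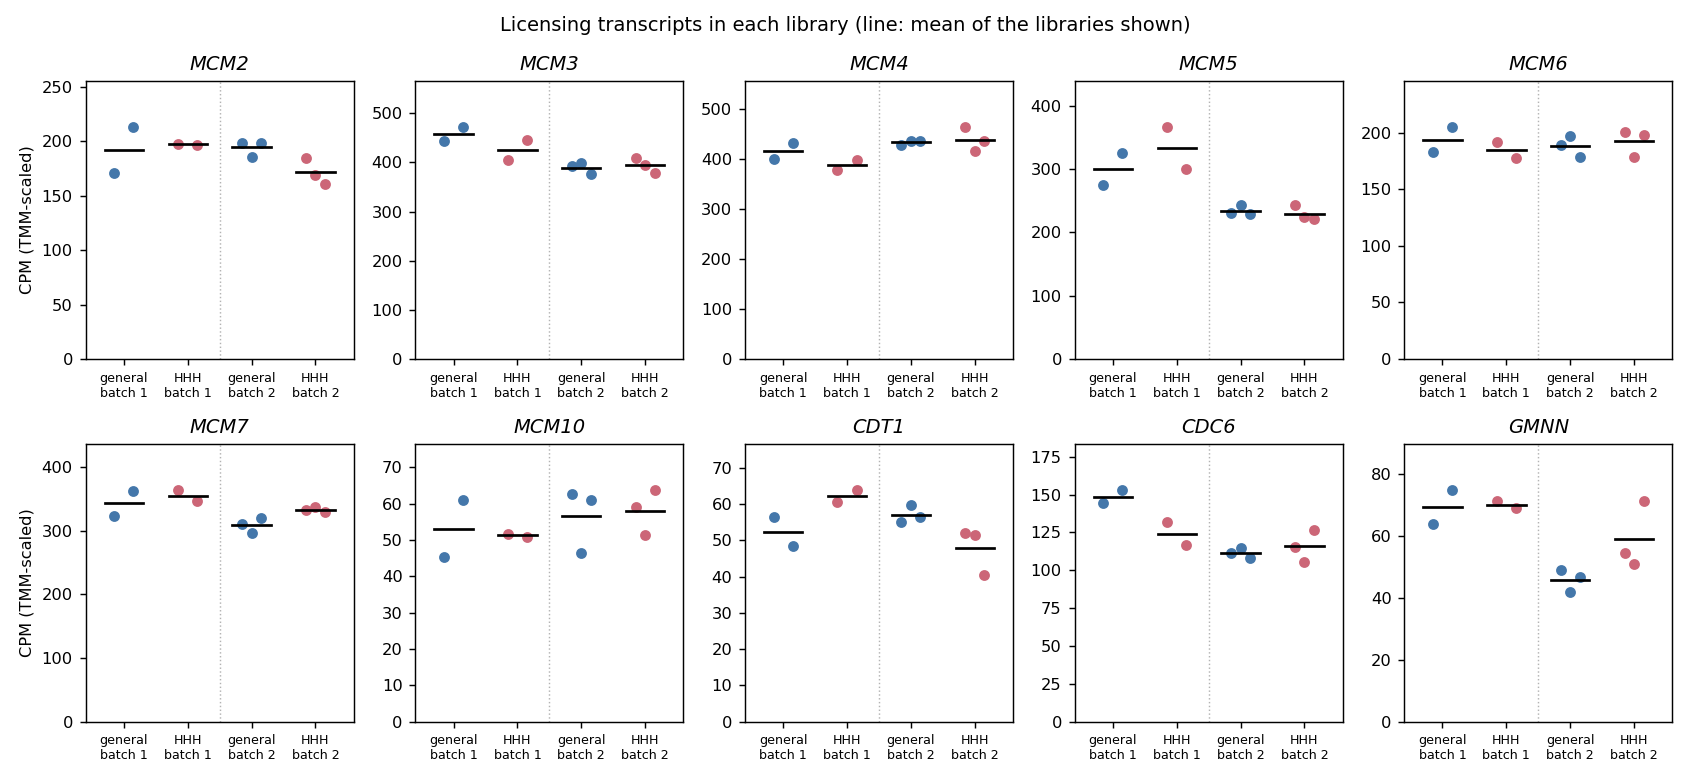
CPM of each licensing gene in every library, with general in blue, HHH in red and the mean of each group as a line. MCM5 lies at 275 to 366 CPM in batch 1 and 221 to 244 CPM in batch 2, and CDT1 lies higher in HHH in batch 1 and lower in HHH in batch 2.

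No MCM subunit passed the test between populations within either batch. MCM2 stood at 171 and 213 CPM in the general libraries of batch 1 and at 197 and 197 CPM in HHH, and in batch 2 at 199, 186 and 199 CPM in general and 185, 169 and 161 CPM in HHH. The HHH libraries of batch 2 thus lay just below the general ones, with a log2 change of -0.18 ± 0.09 (SE) that did not pass (adjusted p = 0.241, edgeR) and was -0.070 once the trend of each library with GC content was removed. MCM7 was the other subunit whose groups did not overlap in batch 2, at 310, 297 and 320 CPM in general and 332, 337 and 330 CPM in HHH, with a log2 change of 0.11 (adjusted p = 0.433) that was 0.22 with the GC trend removed (adjusted p = 0.107). In batch 1 MCM4 was lower in both HHH libraries, 377 and 397 CPM against 400.0 and 432 CPM in general, with a log2 change of -0.10 and an adjusted p of 0.655. Groups of 2 and 3 often lie apart: 43.5% of all genes did not overlap in batch 1 and 36.2% did not in batch 2, beside 3 of 10 members (MCM4, CDT1 and CDC6) in batch 1 and 4 of 10 (MCM2, MCM7, CDT1 and GMNN) in batch 2. MCM3, MCM5 and MCM6 overlapped in both batches, with log2 changes between -0.10 and 0.15. MCM10 ranged from 45.3 to 61.1 CPM in the general libraries of batch 1 and from 50.9 to 51.7 CPM in HHH, and from 46.4 to 62.6 CPM and 51.4 to 63.8 CPM in batch 2.

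Within batch 1 alone 0 members passed, where 2.14% of all genes did. CDC6, the ATPase that recruits the helicase to the origin, was the member with an unadjusted p under 0.05, beside 3992 of the 23552 genes tested. It stood at 144 and 153 CPM in the general libraries and at 132 and 117 CPM in HHH, so the groups did not overlap, with a log2 change of -0.26 (95% interval -0.49 to -0.025, adjusted p = 0.244). In batch 2 the general libraries had 111, 115 and 108 CPM and the HHH libraries 115, 105 and 127 CPM, with a log2 change of 0.054. The difference between the batches in the CDC6 change was 0.31 on the log2 scale (95% interval 0.012 to 0.61, adjusted p = 0.248).

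Geminin (GMNN) had the largest estimate in batch 2, and its target CDT1 had the next largest with the opposite sign, a place that CDT1 lost once the GC trend was removed. Within that batch 0 members passed in the main test, which leaves out the pairing by replicate number, where 9.47% of all genes did. GMNN and CDT1 were the 2 members with an unadjusted p under 0.05, beside 6417 of the 23552 genes tested. GMNN stood at 48.9, 42.0 and 46.7 CPM in the general libraries and at 54.5, 51.1 and 71.4 CPM in HHH. Every HHH library lay above every general one, and replicate 3 lay well above the other two. The log2 change was 0.36 ± 0.12 (SE), a fold of 1.29 with a 95% interval of 1.08 to 1.53 (adjusted p = 0.0641). In the fit that blocks on replicate numbers the change was 0.35 and GMNN passed (adjusted p = 0.0276). It also passed with DESeq2 (adjusted p = 0.0278). Within batch 2 GMNN passed under 5 of 24 alternatives. With the GC trend removed and no replicate block its change was 0.29 and did not pass. With library size only it was 0.27 and did not pass (adjusted p = 0.204). Leaving out HHH batch 2 replicate 3 gave a log2 change of 0.20 (adjusted p = 0.268), and leaving out replicate 2 in its place gave 0.46 (adjusted p = 0.0421).

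CDT1, the factor that brings the helicase ring to CDC6, had the opposite sign in that batch. It stood at 55.0, 59.7 and 56.4 CPM in the general libraries of batch 2 and at 51.9, 51.5 and 40.6 CPM in HHH, with a log2 change of -0.25 (95% interval -0.47 to -0.033, adjusted p = 0.129). CDT1 has the highest GC content of the 10 genes, 64.3% of its longest transcript. With the GC trend removed its change in batch 2 was -0.050 (adjusted p = 0.793), or -0.053 with the replicate block as well. The lowest value was again in replicate 3, and without that library the change was -0.15 (adjusted p = 0.385). In batch 1 the general libraries had 56.4 and 48.4 CPM and the HHH libraries 60.6 and 63.9 CPM, a log2 change of 0.25 (adjusted p = 0.331) that was 0.14 without general batch 1 replicate 2 and 0.093 with the GC trend removed. CDT1 thus did not overlap between the populations in either batch, higher in HHH in batch 1 and lower in HHH in batch 2, as 6.58% of all genes lay apart in opposite directions. The test of that difference gave a log2 value of -0.50 (95% interval -0.84 to -0.15), with an unadjusted p of 0.00760 and an adjusted p of 0.140. With the GC trend removed it was -0.14 (adjusted p = 0.716), and with the replicate block as well it was -0.29. In batch 1 only replicate 2 was in both populations, so the blocked change of that batch rests on 1 pair of libraries. Over all members 0 differed in their HHH change between the batches, where 0.777% of all genes did. GMNN in batch 1 overlapped, at 63.9 and 74.9 CPM in general and 71.3 and 69.2 CPM in HHH, with a log2 change of 0.017, and its difference between batches was 0.35 (adjusted p = 0.321).

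The ratio of the inhibitor to its target followed from these values, with no correction for GC content. Per kilobase of exon, GMNN over CDT1 was 1.14 ± 0.372 (SD, n = 5) in general and 1.35 ± 0.349 (SD, n = 5) in HHH. These SDs pool the batches and so hold the difference between them as well. The mean ratio was 1.49 in batch 1 and 0.899 in batch 2 in general, and 1.26 and 1.41 in HHH. In batch 2 the ratio was 0.991, 0.784 and 0.923 in the general libraries and 1.17, 1.11 and 1.96 in HHH, so the groups did not overlap. In batch 1 it was 1.26 and 1.73 in general and 1.31 and 1.21 in HHH, which overlapped. With the longest transcript as the length (1263 bases for GMNN, beside 2476 bases over all its exons) the means were 2.15 and 2.56, so the ratio can be compared between libraries but not with 1.

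**Figure D4:**
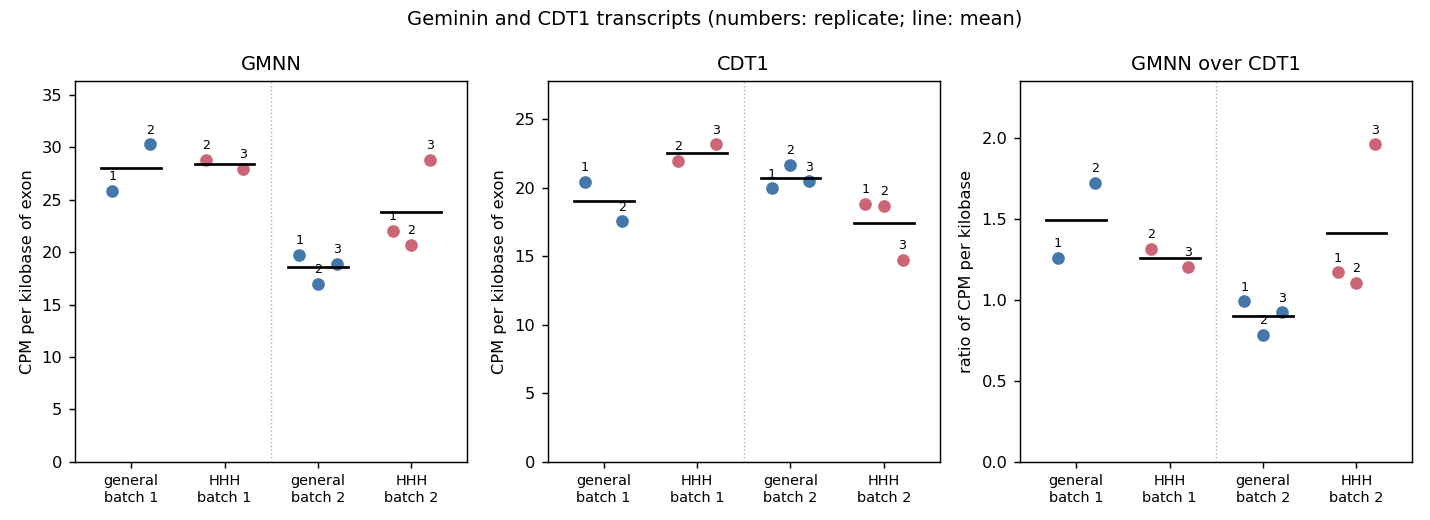
GMNN and CDT1 in CPM per kilobase of exon and their ratio, in each library, with the replicate number beside each point and the group mean as a line. In batch 2 the HHH ratios (1.11 to 1.96) lie above the general ones (0.784 to 0.991), with replicate 3 farthest, and in batch 1 the groups overlap.

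More licensing transcripts passed between the batches than between the populations. With population as a term, 3 members passed, MCM5, GMNN and CDC6, where 47.9% of all genes did, and all 3 were lower in batch 2. Of all genes 23.9% passed as lower, which was 49.9% of those that passed. MCM5 ranged from 275 to 366 CPM over the 4 batch 1 libraries and from 221 to 244 CPM over the 6 of batch 2, which did not overlap, as for 28.5% of all genes. Its log2 change was -0.45 ± 0.08 (SE, adjusted p = 5.24e-04, edgeR). GMNN stood at 63.9 to 74.9 CPM in batch 1 and 42.0 to 71.4 CPM in batch 2, with a log2 change of -0.43 ± 0.10 (SE, adjusted p = 0.00383). CDC6 stood at 117 to 153 CPM in batch 1 and 105 to 127 CPM in batch 2, with a log2 change of -0.26 ± 0.08 (SE, adjusted p = 0.0180). Without general batch 1 replicate 2 CDC6 no longer passed (adjusted p = 0.0720).

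The other members had smaller estimates. MCM3 was at -0.17 on the log2 scale (adjusted p = 0.0544), and the remaining 6 lay between -0.13 for CDT1 and 0.14 for MCM10, with adjusted p-values of 0.155 to 0.927. MCM4 and MCM6, which adjoin each other in the ring, were at 0.12 and 0.009. The sign of a batch change depended on the scaling. With library size only, the median of all genes moved from 0.004 to 0.34 in favour of batch 2, and MCM4, MCM6, MCM7 and MCM10 passed as higher in batch 2 with log2 changes of 0.45, 0.34, 0.21 and 0.47, where 50.6% of all genes passed as higher. MCM5, GMNN and CDC6 then stood at -0.11, -0.093 and 0.074 and none of the 3 passed (adjusted p = 0.272, 0.463 and 0.399). The change of scaling moved each of these genes and the median by nearly the same amount.

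**Figure D5:**
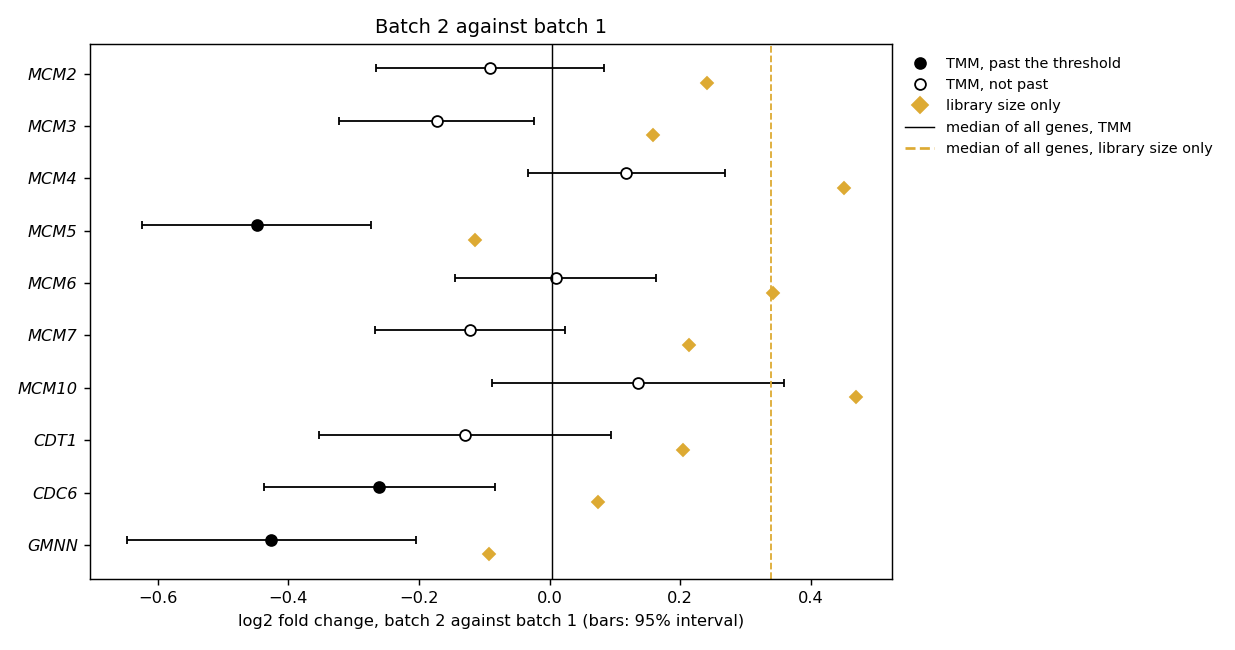
Log2 fold change of batch 2 against batch 1 for each licensing gene, with TMM scaling (circles with 95% intervals, filled where the adjusted p was under 0.05) and with library size only (diamonds), beside the median of all genes under each scaling (lines at 0.004 and 0.34). MCM5, GMNN and CDC6 lie farthest below the median of all genes, and the second scaling moves the genes and the median by nearly the same amount.

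The pathway around licensing had few calls between the populations. Of 75 other genes of origin recognition, helicase firing, the replisome, the control of CDT1 and geminin, and E2F and RB, 73 were tested, and 3 of them passed between HHH and general over both batches, 1 higher and 2 lower (4.11%, beside 5.83% of all genes). ORC5, a subunit of the origin recognition complex that the helicase is loaded by, was higher in HHH, at 29.6 ± 3.68 CPM (SD, n = 5) in HHH and 24.1 ± 4.21 CPM (SD, n = 5) in general, with a log2 change of 0.31 (adjusted p = 0.0446). WDHD1, which links the running helicase to DNA polymerase alpha, was lower in HHH, at 136 ± 24.3 CPM and 164 ± 23.2 CPM in general, with a log2 change of -0.28 (adjusted p = 0.0283). TIMELESS, part of the complex that steadies the fork, was lower in HHH, at 101 ± 26.5 CPM and 119 ± 29.7 CPM in general, with a log2 change of -0.25 (adjusted p = 0.0374). WDHD1 and TIMELESS were lower in all HHH libraries than in all general libraries of the same batch, as were 5.42% of all genes. These 3 genes kept their sign under all 24 alternatives and passed under 11, 14 and 10 of them.

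By list, 1 of 8 origin recognition genes was higher and 0 lower, 0 of 5 other MCM proteins and 0 of 8 tested genes that control CDT1 and geminin passed, 2 of 17 firing genes were lower, and 0 of 23 replisome genes and 0 of 13 E2F and RB genes passed. Between the batches 39 of the 73 pathway genes passed (53.4%, beside 47.9% of all genes), 12 higher and 27 lower in batch 2 with TMM scaling. With library size only 38 were higher and 2 lower, where 50.6% of all genes passed as higher and 7.08% as lower.

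Transcripts of the other phases of the cycle stood beside these. Of 25 other S phase genes 0 passed between HHH and general over both batches, with a median log2 change of -0.008. Within batch 1 their median was -0.16, with 1 lower (1.02% of all genes) and 0 higher, and within batch 2 it was 0.10, with 2 higher and 0 lower. Of 55 G2/M genes 9 were higher in HHH and 0 lower over both batches, where 1.94% of all genes were higher and 3.89% lower, with a median of 0.16, and the 9 included CDK1, TOP2A, UBE2C and AURKA. Within batch 2, where GMNN had its largest estimate, 24 of the 55 were higher and 0 lower, with a median of 0.28, and 3.83% of all genes were higher. In batch 1, where GMNN was at 0.017, 1 was higher (1.12% of all genes) and 0 lower, with a median of 0.042. The median difference between the batches was 0.28 for the S phase genes and 0.27 for the G2/M genes, with 0 passing in either list. The part of the phase makeup of the samples in the GMNN values was not tested.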

How the data were processed

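RNA-seq of 10 libraries was used. The authors deposited whole fragment counts, made from TruSeq RNA libraries, per Ensembl gene without normalization, and a second table of log2 values, a score made after TMM scaling and conversion to RPKM in which the batch means were equal to within 9.24e-14 over 27641 genes, so it served as an alternative only. The submitters' processing notes name CASAVA 1.8.2, R 3.2.2, limma 3.26.9 and GRCh37 with no role. The aligner, counter and annotation are not given in the sources used here. Groups, batches and replicate numbers came from the titles.

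Identifiers were matched to GENCODE 44, by which 94.0% of the tested genes had a symbol. Genes were kept by filterByExpr with a minimum count of 10, scaled by TMM (factors 0.832 to 1.18) and tested in edgeR 4.0.16 (R 4.3.3) with its quasi-likelihood F test over all 10 libraries, with batch as a term, or with population nested in batch for the within-batch contrasts and their difference, which share 1 estimate of the spread. P-values were adjusted by Benjamini-Hochberg over 23552 genes, and genes passed at an adjusted p under 0.05. Standard errors are the log2 change divided by the square root of F. The script was tested on simulated data. The biological coefficient of variation common to all genes was 0.128. A floor of 3 counts stood for 0.0460 to 0.0687 CPM. Deviations from the group means were correlated across genes between libraries with the same replicate number. The values were 0.113 in batch 1 and 0.239, 0.143 and 0.113 in batch 2, each over 0.1. In groups of 2 the deviations mirror each other, so general replicate 1 and HHH replicate 3 of batch 1 also gave 0.113. Thus only batch 2 bears on the pairing, where unlike numbers gave -0.126 to -0.005. In groups of 3 the deviations also cancel, so these values follow in part from those of like numbers. The numbers were taken to pair the libraries, as a sign from the data and not from the labels. The main test did not use this pairing, and the replicate block did. In batch 1 only replicate 2 was in both populations, so within that batch the block compared 1 pair of libraries. Members and lists were chosen with earlier results of these data known. All 10 members are named, with at most 3 pathway genes per direction by size of change among those past the threshold and at 1 CPM or more. The G2/M examples were chosen after their values were seen. Alternatives were other scalings, filters and tools (DESeq2 1.42.0, limma 3.58.1 with voom or on the deposited log2 values), small RNAs left out, a GC spline with 5 degrees of freedom, the replicate block, no batch term, fits of 1 batch, and the libraries left out in turn. The lengths implied by the deposited values were added after seeing the data.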

Additional observations from a re-analysis of the deposited data

Results flagged for a closer look

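MCM4 in general batch 1 replicate 1 stood at 400.0 CPM, apart from the other 4 general libraries, which lay between 428 and 436 CPM. Its gap to the nearest of them was 0.772 of the group's range, above Dixon's critical value of 0.71 for 5 libraries. Of the 20 groups of 5 examined (10 genes in 2 populations), this was 1 flag, and chance flags about 1 group in 20. The group pools both batches: the MCM4 level averaged 402 CPM in batch 1 and 436 CPM in batch 2, the other general library of batch 1 was at 432 CPM and the HHH libraries of batch 1 were at 377 and 397 CPM.

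CDT1 lay higher in both HHH libraries than in both general libraries of batch 1, and lower in all 3 HHH libraries than in all 3 general libraries of batch 2. The difference of the HHH change between the batches was -0.50 on the log2 scale, and its test did not pass after adjustment over all genes (edgeR adjusted p = 0.140). With the GC trend of each library removed it was -0.14 (adjusted p = 0.716). Of all genes, 6.58% lay apart in both batches in opposite directions.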

How the results depend on the processing

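Over both batches, 0 members passed under each of the 24 alternatives, the replicate block and each left-out library included, while the count over all genes ran from 168 without a batch term to 2450 with the replicate block and the GC trend removed, beside 1373. Leaving out 1 library moved that count between 808 and 2347, the highest without HHH batch 1 replicate 3, and it fell by over 1.5 times without HHH batch 2 replicate 1 (831) or 2 (808) or general batch 2 replicate 1 (896) or 3 (841). Within batch 2 the number of members that passed was 1, GMNN, in place of 0 with no low-count filter, with DESeq2, with the replicate block (adjusted p = 0.0276) and with the replicate block and the GC trend removed (adjusted p = 0.0331). Under these settings, in the same order, 8.04%, 13%, 15.6% and 16% of all genes passed. The number was 0 to 1 when 1 library was left out, the 1 being GMNN without HHH batch 2 replicate 2, where 6.4% of all genes passed. The replicate block changed no other call on a member. On the deposited log2 values, whose median change over all genes in batch 1 was -0.41, 6 members passed within batch 1 (35.3% of all genes) and 6 in the difference between batches (25.3%), with MCM2 at -0.37 and MCM7 at -0.36 in batch 1, and 0 in both once each library was centred on its median. The cause was not tested. For batch 2 against batch 1, library size only turned MCM7 to 0.21 and CDC6 to 0.074. Under it MCM5, GMNN and CDC6 no longer passed and 4 other members did, all higher in batch 2, where 50.6% of all genes passed as higher. Leaving out 1 library gave 2 to 4 members, where 40.8 to 49.8% of all genes passed. CDC6 was lost without general batch 1 replicate 2 and MCM3 was gained without HHH batch 1 replicate 2. The mean ratio of GMNN to CDT1 was 2.15 in general and 2.56 in HHH with the longest transcript as the length, which follows from the shorter length given to GMNN. With the length of all exons, whose means were 1.14 and 1.35, leaving out 1 library gave means from 0.990 to 1.23 in general and from 1.20 to 1.41 in HHH. With 2 or 3 libraries a group, changes smaller than the intervals could not be told from 0.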
